A study of Mus musculus with 10 samples.

Results

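The interferon-induced GTPases described here are 10 named mouse genes, Gbp2, Gbp3, Gbp4, Gbp6, Iigp1, Igtp, Irgm1, Irgm2, Ifi47 and Tgtp1, of which 8 could be measured in the lung, out of 12393 genes on the array. A gene counted as measured where a probe set carried its symbol and no other. Gbp4 and Tgtp1 had only probe sets that carry a second gene's symbol as well, so no value is given for them. Where a gene had more than 1 probe set, as Gbp2 and Iigp1 did, the one with the highest mean over all arrays represented it. The family was chosen by gene name with the difference between the groups already known, so the values of its members in that comparison are given as a description and without p-values.

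Whole lungs of 10 male C57BL/6 mice aged 6 to 8 weeks were measured, 5 after intermittent hypoxia, in which inspired oxygen falls and recovers repeatedly, and 5 in normoxia. The design text calls the mice a separate subset of animals. Each lung gave total RNA for its own Affymetrix Mouse Genome 430A 2.0 array, and no genetic change or drug is named for either group. The oxygen levels, the length of exposure and the hour of collection are not given in the sources used here. Values were log2 probe set levels, with array medians of 7.69 to 7.73; precision is limited by having 5 arrays a group. Normoxia arrays 2, 3 and 4 had a smaller SD over all their probe sets (1.89 to 1.93) than the other 7 (1.99 to 2.05), so results are also given without those 3. Of 8 markers of lung epithelium, such as surfactant protein genes, 0 differed in limma at an adjusted p below 0.05, with 2 below 0.05 before adjustment and 2 in SAM. The mean log2 level of that list was 12.87 to 13.07 in intermittent hypoxia and 12.77 to 13.02 in normoxia.

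Interferon gamma, made mainly by T and NK cells, signals through the kinases JAK1 and JAK2 and acts on genes that carry gamma-activated sites, while factors of the IRF family bind interferon-stimulated response elements. Among the genes switched on in this way in mouse cells are the guanylate-binding proteins (Gbp genes) and the smaller immunity-related GTPases (Iigp1, Igtp, Irgm1, Irgm2, Ifi47 and Tgtp1). Both families gather on the vacuoles of parasites and bacteria inside infected cells and help to break them open. The proteins of Irgm1, Irgm2 and Igtp act as regulators that keep the effector GTPases, Iigp1 among them, off the cell's own membranes.

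The DNA before the start of these genes is shown first, since it carries the motifs that the interferon-activated factors recognise. RefSeq's table for build GRCm38.p6 held 8 starts for 7 of the 10 genes, and the 250 bases before each were searched on both strands for 2 motifs. These were the core of the response element (GAAANNGAAA) and the gamma-activated site (TTCNNNGAA). Capitals below mark the matches, and a core on the opposite strand appears as its reverse complement. The 5 sequences shown, 5′ to 3′ along each gene, hold the core in different settings.
Gbp2 (chr3:142620413-142620662, plus strand): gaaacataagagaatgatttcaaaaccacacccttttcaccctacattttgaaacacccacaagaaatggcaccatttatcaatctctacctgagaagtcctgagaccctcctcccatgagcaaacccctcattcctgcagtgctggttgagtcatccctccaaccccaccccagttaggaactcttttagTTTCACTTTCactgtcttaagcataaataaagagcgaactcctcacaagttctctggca
Gbp3 (chr3:142559794-142560043, plus strand): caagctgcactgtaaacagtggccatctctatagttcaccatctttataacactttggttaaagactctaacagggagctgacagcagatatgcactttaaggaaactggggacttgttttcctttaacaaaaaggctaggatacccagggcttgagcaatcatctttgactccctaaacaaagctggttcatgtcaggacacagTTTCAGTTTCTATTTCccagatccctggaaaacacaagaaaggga
Irgm1 (chr11:48871421-48871670, minus strand): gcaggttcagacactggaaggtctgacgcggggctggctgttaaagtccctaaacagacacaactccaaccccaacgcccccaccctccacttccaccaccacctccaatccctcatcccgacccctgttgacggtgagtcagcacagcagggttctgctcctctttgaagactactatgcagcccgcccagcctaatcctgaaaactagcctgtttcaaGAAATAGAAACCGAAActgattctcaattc
Igtp (chr11:58199306-58199555, plus strand): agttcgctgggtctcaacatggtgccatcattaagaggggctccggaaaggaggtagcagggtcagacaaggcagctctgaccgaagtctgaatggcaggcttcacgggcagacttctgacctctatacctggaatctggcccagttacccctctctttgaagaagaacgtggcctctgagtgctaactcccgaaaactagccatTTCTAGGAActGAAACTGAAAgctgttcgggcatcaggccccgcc
Irgm2 (chr11:58214727-58214976, plus strand): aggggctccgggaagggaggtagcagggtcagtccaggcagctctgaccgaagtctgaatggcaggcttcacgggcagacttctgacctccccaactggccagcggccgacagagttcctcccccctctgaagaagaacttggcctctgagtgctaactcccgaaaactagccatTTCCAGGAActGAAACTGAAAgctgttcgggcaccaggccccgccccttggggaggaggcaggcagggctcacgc

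The core stood before 6 of the 8 starts, against 2.98% of 32841 starts in the whole table. It lay on the strand of the gene, 34 bases before the start of Igtp and 64 before that of Irgm2. Irgm1 had a pair of overlapping cores at 30 and 24 bases. In Gbp2 (59 bases) and in the first of 2 starts of Gbp3 (45 and 39 bases, overlapping) the core lay on the opposite strand. The other start of Gbp3 and the start of Ifi47 held neither motif in this window.

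The gamma-activated site stood before 3 of the 8 starts, those of Igtp, Irgm2 and Tgtp1, against 7.02% of all starts. In each of these genes the site was followed after 2 bases by the core, at 45, 75 and 88 bases before the start for the site. That arrangement, looked for after it was seen in these genes, occurred before 5 of the 32841 starts (0.0152%), and the others belonged to Tgtp2 and Gm12185. The windows are not independent, since Igtp and Irgm2, neighbours on chromosome 11 with no other protein-coding gene between them, shared a run of 55 identical bases. Tgtp1 shared a run of 20 bases with Irgm2, which takes in the whole gamma-activated site, and a run of 14 with Igtp. A match describes letters and not a bound site.

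**Figure D1:**
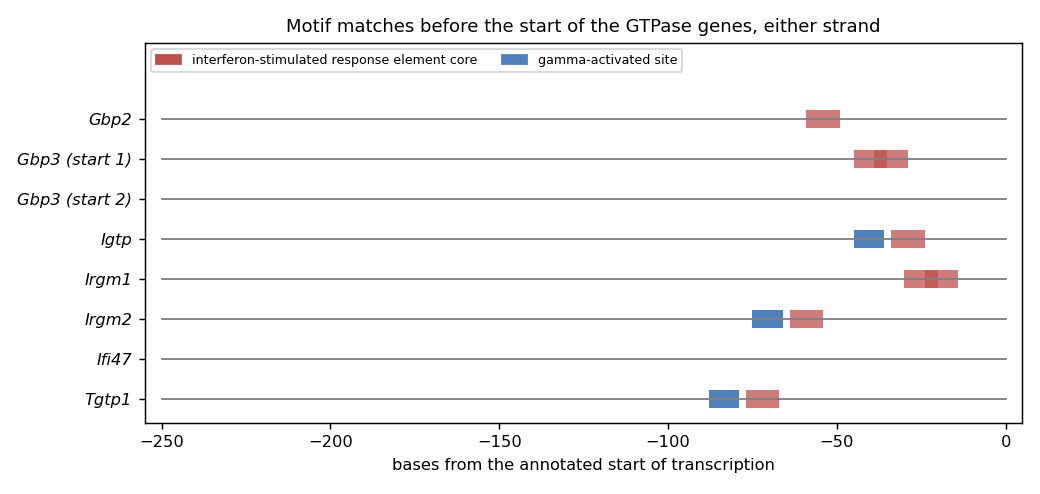
Motif matches in the 250 bases before each annotated start (horizontal axis, bases from the start), for 8 starts of 7 genes, with response element cores in red and gamma-activated sites in blue. Of the 8 starts 6 hold a core, all of them within 77 bases of the start, and 3 hold a gamma-activated site just before it.

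All 8 measured GTPase genes were higher after intermittent hypoxia, by 1.37-fold (Irgm1) to 2.12-fold (Iigp1) in 7 of them. The eighth, Gbp6, was 2.17-fold higher, but its normoxia levels were dim, near the floor of the array, where the lowest value was 3.99, so its fold change is uncertain. The median log2 difference of the 8 genes was 0.78, against 0.01 over all 12393 genes, whose 5th and 95th percentiles were -0.31 and 0.38. In limma 8 of the 8 were called higher at an adjusted p below 0.05, beside 8.93% of all genes. In each of the 8 genes the lowest hypoxia array lay above the highest normoxia array, as it did for 5.76% of all genes. Since this comparison put the family forward, nothing is read from these counts. In bulk lung, more cells that express a gene and more RNA per cell cannot be told apart.

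Of the measured members of the named family, Gbp6 was the dimmest guanylate-binding protein gene in normoxia. It had log2 levels of 7.51, 6.63, 6.41, 6.35 and 6.66 on hypoxia arrays 1 to 5, against 5.58, 5.50, 5.37, 5.26 and 6.28 on normoxia arrays 1 to 5. Hypoxia array 1 stood far above the other 4, and normoxia array 5 came within 0.08 of the lowest hypoxia array. The means were 6.71 ± 0.47 and 5.60 ± 0.40 (SD, n = 5 each), a log2 difference of 1.12 (SE 0.22).

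Gbp2, whose protein is drawn to the vacuole of the parasite Toxoplasma in mouse cells, read 10.70, 10.31, 10.23, 10.22 and 10.26 in intermittent hypoxia, against 9.75, 9.46, 9.14, 9.51 and 10.03 in normoxia. Apart from array 1 the hypoxia arrays lay within 0.1 of each other, while the normoxia arrays were spread more widely. Its log2 difference was 0.77 (SE 0.15), or 1.70-fold. The other Gbp2 probe set, of a kind (_x_at) whose probes can also match related transcripts, differed by 0.47 (SE 0.09) and did not overlap between the groups either.

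Gbp3 measured 9.15, 8.66, 8.94, 8.62 and 9.02 in intermittent hypoxia, against 8.44, 8.16, 7.76, 8.08 and 8.37 in normoxia. The difference was 0.72 (SE 0.13), 1.65-fold, with a gap of 0.18 between the nearest arrays of the groups. Related Gbp transcripts are alike in sequence, so a probe set for one gene may take up signal from another.

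Among the effector GTPases Iigp1, which coats and ruptures vacuoles of Toxoplasma in mouse cells, changed most. Its levels were 11.53, 11.10, 10.70, 10.47 and 10.84 in intermittent hypoxia, against 10.13, 9.91, 8.91, 9.91 and 10.38 in normoxia. Normoxia array 3 was the low end by a full log2 unit, and array 5 was the high end, 0.09 below hypoxia array 4. The difference was 1.08 (SE 0.25), or 2.12-fold, and the other Iigp1 probe set differed by 0.81 (SE 0.18) with no overlap.

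Ifi47 read 10.32, 9.997, 9.93, 9.78 and 9.61 in intermittent hypoxia, against 9.40, 9.07, 8.79, 9.05 and 9.31 in normoxia. Here hypoxia array 5 and not array 4 was the lowest of its group. The log2 difference was 0.80 (SE 0.14), 1.75-fold.

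The 3 regulators differed in size of change. Irgm2 had 10.19, 9.999, 9.990, 9.69 and 9.89 in intermittent hypoxia, against 9.25, 9.05, 8.55, 9.05 and 9.43 in normoxia. Its groups stood farthest apart of the 8 genes, with a gap of 0.27 between the nearest arrays and a difference of 0.89 (SE 0.14), 1.85-fold. Igtp had 10.33, 10.02, 9.93, 9.63 and 10.004 in intermittent hypoxia, against 9.38, 9.36, 8.99, 9.27 and 9.56 in normoxia. Its groups came closest of the 8, with 0.07 between the nearest arrays, at a difference of 0.67 (SE 0.12), 1.59-fold.

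Irgm1, which is also needed in mice for normal autophagy and for the survival of stem and T cells under interferon gamma, changed least. It measured 10.01, 9.70, 9.66, 9.62 and 9.74 in intermittent hypoxia, against 9.41, 9.35, 9.09, 9.22 and 9.36 in normoxia. The arrays of each group lay close together, with SDs of 0.15 and 0.13, and the difference was 0.46 (SE 0.09).

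**Figure D2:**
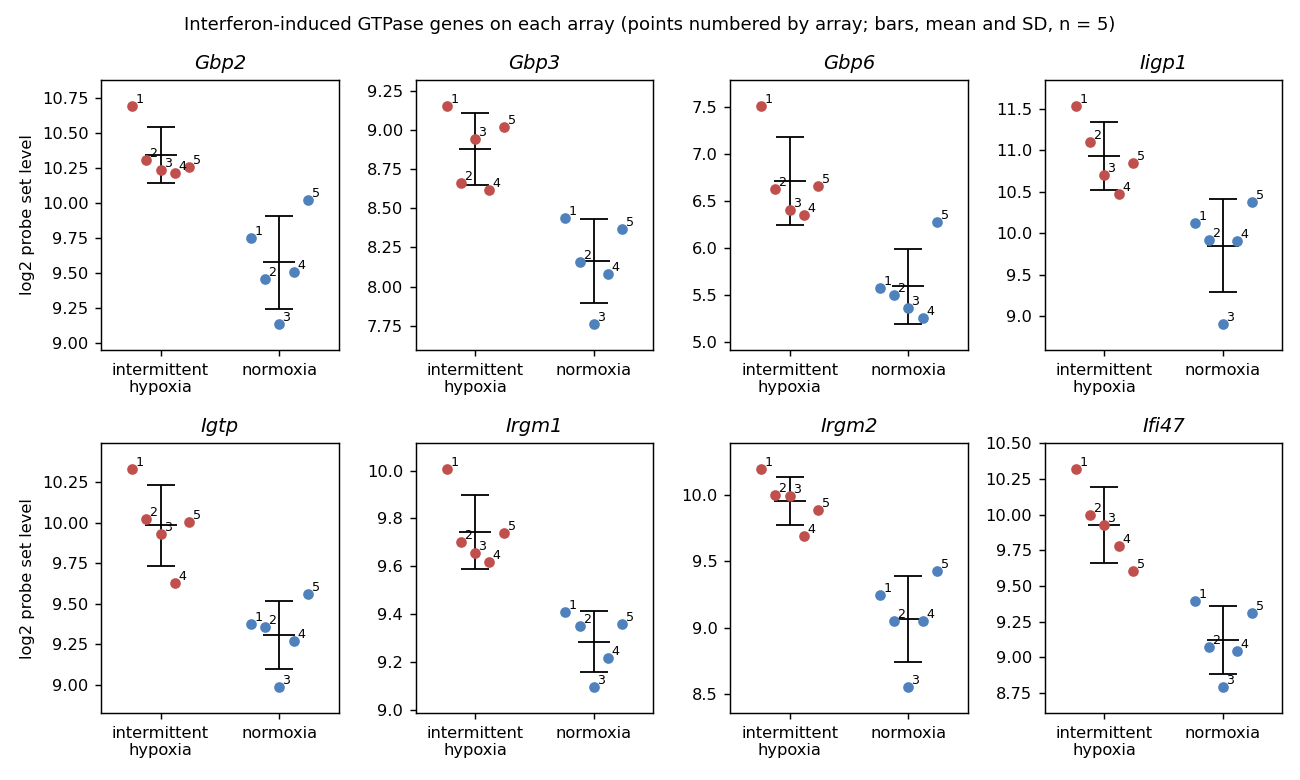
Log2 probe set level (vertical axis) of the 8 GTPase genes on each array, with intermittent hypoxia left in red and normoxia right in blue, points numbered by array and black bars for the mean and SD (n = 5). In every panel the lowest hypoxia point lies above the highest normoxia point, by 0.07 in Igtp to 0.27 in Irgm2.

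The size of these differences depended on normoxia arrays 2, 3 and 4. In all 8 genes the mean of normoxia arrays 1 and 5 was above that of arrays 2 to 4, for Gbp2 9.89 beside 9.37 and for Iigp1 10.25 beside 9.58. Without arrays 2 to 4 the differences were 0.79 for Gbp6, 0.68 for Iigp1, 0.62 for Irgm2 and 0.57 for Ifi47, with 0.52 for Igtp, 0.48 for Gbp3, 0.45 for Gbp2 and 0.36 for Irgm1. All were positive, which was fixed in advance, because no hypoxia array lay below any normoxia array in these genes. Their median was 0.54, and 0 of the 8 genes was called by limma with 2 normoxia arrays left. That fit called 16 probe sets in the whole table. The gap between the groups is the same without these arrays, because the highest normoxia value was on array 1 or 5 in 8 of the 8 genes. After quantile normalization the differences ran from 0.35 to 1.17, with 8 genes called and none overlapping. That fit called 2285 of all 22626 probe sets, 1350 of them higher. The share of all genes without overlap is not given for it, and nothing is read from these counts.

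**Figure D3:**
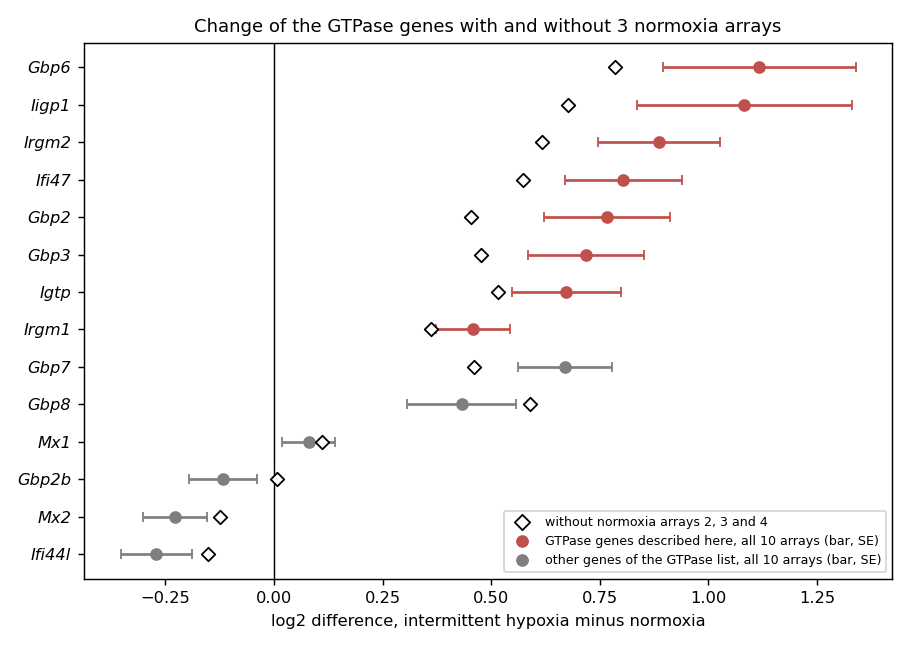
Log2 difference, intermittent hypoxia minus normoxia (horizontal axis), for the 8 GTPase genes in red and 6 other genes of the GTPase list in grey, with bars for the SE and open diamonds for the difference without normoxia arrays 2, 3 and 4. The 8 genes run from 0.46 to 1.12, and from 0.36 to 0.79 without those arrays. Their sign could not turn, since their groups do not overlap.

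Within each group the 8 genes went up and down together from array to array, a pattern that the difference between the groups does not contain. Hypoxia array 1 was the highest of its group in 8 of the 8 genes, and hypoxia array 4 was the lowest in 7, the exception being Ifi47. In normoxia array 3 was the lowest in 7 genes, all but Gbp6, while array 5 was the highest in 5 and array 1 in 3. On average hypoxia array 1 lay 0.41 above and array 4 0.26 below its group mean, and normoxia array 5 lay 0.34 above and array 3 0.42 below. Across the 10 arrays, after the group means were taken off, each gene's deviations correlated with the mean of the other 7 at 0.80 (Gbp6) to 0.95 (Gbp2). Without hypoxia array 1 and normoxia array 3, the farthest from their group means, these values were 0.66 (Ifi47) to 0.96 (Irgm2) over 8 arrays. In normoxia the arrays ranked alike by this mean deviation and by the SD over all their probe sets, rising from array 3 through 4, 2 and 1 to 5. Their SDs in that order were 1.89, 1.92, 1.93, 2.00 and 2.01. In intermittent hypoxia the orders differed, with SDs of 2.02 on array 1 and 2.01 on array 4, against 2.05 on array 2. The genes share any effect that touches a whole lung sample or array, and its part was not tested.

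**Figure D4:**
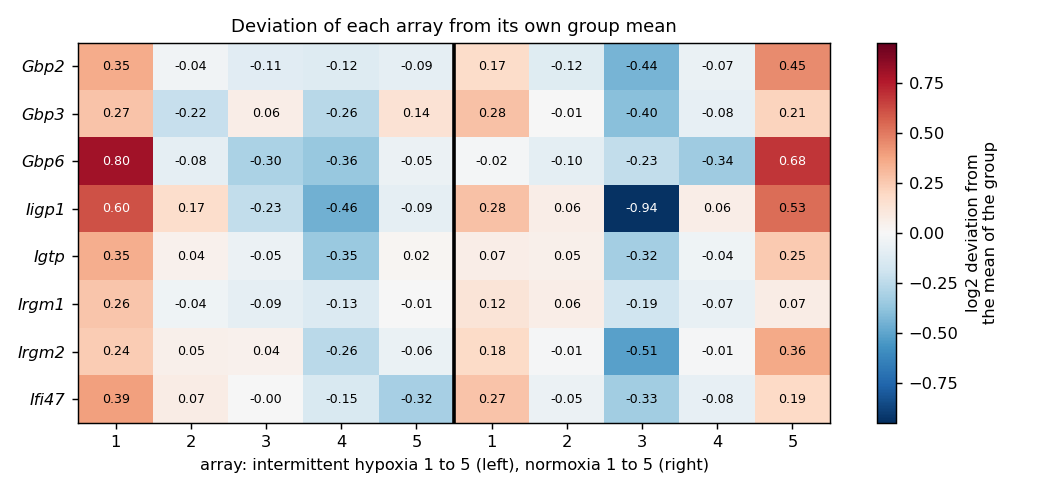
Log2 deviation of each array from the mean of its own group (colour and printed value) for the 8 GTPase genes in rows, with hypoxia arrays 1 to 5 left of the line and normoxia arrays 1 to 5 right of it. Hypoxia array 1 and normoxia array 5 are above their group mean in 8 of the 8 genes, and hypoxia array 4 and normoxia array 3 are below it in 8.

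Of the 12385 other genes, those with clone names were passed over in looking for genes that varied like the GTPases. Among the rest, the gene whose deviations within the groups were most like the mean of the GTPases was H2-DMa. It encodes a chaperone subunit that loads peptides onto MHC class II. Its Pearson r was 0.96 over 10 arrays and 0.90 without hypoxia array 1 and normoxia array 3. H2-DMa also rose, by 0.93 (SE 0.15, limma adjusted p = 0.00622), but like the GTPases it was not called without normoxia arrays 2 to 4 (0.68, adjusted p = 0.169). The next 9, in order, were Lias, Rftn2, Fbxl6, Ccnk, Dmap1, Rps19, Cnr2, Gins4 and Cul9, with r from 0.96 to 0.92. None of these 9 passed between the groups, and their differences ran from -0.06 (Cul9) to 0.28 (Cnr2). Other genes were picked after their values were seen, and ranked with the clone names kept in. Of these the immunoproteasome gene Psmb9 ranked at 25 with r = 0.91, and Irf1 at 86 with r = 0.86. Irf8 had r = 0.50 (rank 2884), Ifng -0.13 (rank 8026) and Cxcl9 -0.60 (rank 11210). With so many genes set against 10 arrays, high values arise for unrelated genes too.

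Of other genes on a list of interferon-induced GTPases 6 were measured, and 2 rose and 1 fell. Over all genes 8.93% were called higher and 3.6% lower. Gbp7, which lies beside Gbp3 in the genome, had 10.24, 10.28, 10.09, 10.05 and 10.15 in intermittent hypoxia, against 9.62, 9.58, 9.13, 9.35 and 9.79 in normoxia. The groups did not overlap, and Gbp7 rose by 0.67 (SE 0.11, limma adjusted p = 0.00562). Its other probe set differed by 0.41 and did not pass. Gbp8, also near the floor at 5.35 to 6.11 in intermittent hypoxia and 5.01 to 5.47 in normoxia, rose by 0.43 (SE 0.13, limma adjusted p = 0.0425), but did not pass once any 1 array other than normoxia array 5 or hypoxia array 4 was left out, 8 arrays in all (adjusted p up to 0.0862). Nor did Gbp8 pass in a limma fit blocked by array number (adjusted p = 0.0892).

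Not every interferon-induced gene of this list was higher. The antiviral dynamin-like GTPase genes Mx1 and Mx2 differed by 0.08 (SE 0.06) and -0.23 (SE 0.07), and Gbp2b by -0.12 (SE 0.08), and none of these passed (limma adjusted p = 0.391, 0.0621 and 0.321). Many laboratory strains carry defective Mx genes, and the low levels of Mx1, 5.23 ± 0.09 in intermittent hypoxia and 5.15 ± 0.04 in normoxia (SD, n = 5 each), are near the floor of the array. Gbp2b was near the floor as well, at 5.35 to 5.50 in intermittent hypoxia and 5.38 to 5.75 in normoxia. Ifi44l fell by 0.27 (SE 0.08, limma adjusted p = 0.0493). Leaving out 1 array ended the call for 7 of the 10, namely normoxia 2, 3 and 4 and hypoxia 1, 2, 3 and 4 (adjusted p up to 0.123). So did quantile normalization (adjusted p = 0.0831), a fit blocked by array number (adjusted p = 0.0922) and averaging its probe sets (adjusted p = 0.131). Neither of its other probe sets passed. Without normoxia arrays 2 to 4 together 0 of the 6 genes passed in limma (2 before adjustment).

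Upstream of the GTPases, 4 of 28 signalling genes were called, all higher, beside 8.93% of all genes higher and 3.6% lower, a share near that of the array. Of 8 ligand genes 0 passed limma, with 2 below 0.05 before adjustment and 2 in SAM. Ifng, which encodes interferon gamma and is named outside the naming rule, after its values were seen, had 4.73, 4.76, 4.63, 4.51 and 4.46 in intermittent hypoxia, against 4.73, 4.67, 4.93, 4.69 and 4.63 in normoxia. The groups overlapped, near the floor of the array, with a difference of -0.11 (SE 0.08). Ifna2, an interferon alpha gene, differed by -0.39 (SE 0.13, limma adjusted p = 0.0608), and Il18, a cytokine that drives interferon gamma production, by 0.24 (SE 0.09, adjusted p = 0.0970).

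Of 7 receptor and kinase genes 2 rose. Jak1, the kinase shared by both types of interferon receptor, had 11.04, 10.89, 10.75, 10.73 and 10.46 in intermittent hypoxia, against 10.50, 10.05, 9.73, 10.05 and 10.38 in normoxia. Hypoxia array 5 lay below normoxia array 1, so the groups overlapped, and Jak1 rose by 0.63 (SE 0.14, limma adjusted p = 0.0163). Of its other 2 probe sets 1 passed, at 0.41, and 1 did not, at 0.20. Ifnar2, a chain of the type I receptor, rose by 0.46 (SE 0.12, adjusted p = 0.0324), but not without normoxia array 2, 3 or 4 or hypoxia array 1, 2 or 3 (adjusted p up to 0.0838) and not after quantile normalization (adjusted p = 0.0537), and its other probe set differed by 0.08. In a limma fit blocked by array number Ifnar2 was not called either (adjusted p = 0.0594). Ifngr2, of the interferon gamma receptor, differed by 0.27 (SE 0.13, limma adjusted p = 0.165).

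Of 7 transcription factor genes 1 rose, Irf8, which guides the development of macrophages and dendritic cells, by 0.57 (SE 0.15, limma adjusted p = 0.0276). Removing normoxia 2, 3 or 4, or hypoxia 1 or 4, ended the call (adjusted p up to 0.0693), as did quantile normalization (adjusted p = 0.0634), and its other probe set differed by 0.52 and did not pass. Irf9 and Irf7 differed by 0.25 (SE 0.08) and 0.21 (SE 0.08) and did not pass (adjusted p = 0.0719 and 0.0901). Irf1, the main IRF induced by interferon gamma and named after its values were seen, differed by 0.18 (SE 0.09, adjusted p = 0.180). Of 6 inhibitors 1 rose, the phosphatase gene Ptpn6, by 0.66 (SE 0.14, limma adjusted p = 0.0132), while its other probe set differed by 0.28 and did not pass. The phosphatase gene Ptpn2 differed by -0.42 (SE 0.14, adjusted p = 0.0662). Its other 3 probe sets differed by 0.04, -0.05 and 0.07, and the mean of its probe sets by -0.09 (limma adjusted p = 0.318).

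The median difference of the 28 signalling genes was 0.10, against 0.01 over all genes. Without normoxia arrays 2 to 4 the median was 0.02, and 0 were called by limma (2 before adjustment). Without normoxia array 2, 3 or 4 or hypoxia array 1 alone 2 were called, and without normoxia array 5 alone 8 were.

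Targets of interferon gamma that are not GTPases moved with them in part. Of 22 measured 11 rose, 0 fell and 11 did not pass, beside 8.93% of all genes higher and 3.6% lower. Their median difference was 0.32. Casp1, the inflammasome protease, rose by 0.45 (SE 0.07, limma adjusted p = 0.00609), and Psme1, an activator of the proteasome, by 0.53 (SE 0.09, adjusted p = 0.00726). Psmb8, an immunoproteasome subunit, read 9.91, 9.88, 9.96, 9.81 and 9.83 in intermittent hypoxia, against 9.56, 9.13, 8.83, 9.19 and 9.50 in normoxia. Its groups did not overlap, and it rose by 0.63 (SE 0.12, adjusted p = 0.00903).

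The peptide transporter gene Tap1 rose by 0.72 (SE 0.13, limma adjusted p = 0.00881), but none of its other 3 probe sets passed, at -0.30, 0.11 and -0.33, and the mean of the 4 differed by 0.05 (adjusted p = 0.578). The chemokine genes Cxcl9 and Cxcl10, which interferon gamma induces strongly and which are named after their values were seen, differed by -0.12 (SE 0.10) and 0.15 (SE 0.07) and did not pass (adjusted p = 0.424 and 0.181). Cxcl9 overlapped between the groups, at 6.90 ± 0.20 in intermittent hypoxia and 7.02 ± 0.16 in normoxia (SD, n = 5 each). Serping1, the inhibitor of complement C1, differed by 0.40 (SE 0.12, adjusted p = 0.0534). With those 3 normoxia arrays left out the median of the list was 0.18, and 0 of the 22 passed limma (8 before adjustment).

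Antiviral genes of the type I interferon response were split. Of 22 measured 4 rose, 3 fell and 15 did not pass, beside 8.93% of all genes higher and 3.6% lower. Their median was 0.17. Ifit2, which binds viral RNA, had 8.41, 8.34, 8.26, 8.04 and 8.07 in intermittent hypoxia, against 7.72, 7.50, 7.17, 7.59 and 7.73 in normoxia, and rose by 0.68 (SE 0.11, limma adjusted p = 0.00562). Rsad2, which encodes viperin, an enzyme that makes a chain-terminating nucleotide, had 9.27, 9.44, 8.81, 9.23 and 9.30 in intermittent hypoxia, against 9.83, 10.03, 9.81, 9.67 and 10.21 in normoxia. It fell by 0.70 (SE 0.12, adjusted p = 0.00685), its other 2 probe sets fell as well, and its groups did not overlap.

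Rtp4 rose by 0.40 (SE 0.07, limma adjusted p = 0.00683), although its other probe set differed by 0.03. Dhx58, a regulator of the viral RNA sensors, fell by 0.47 (SE 0.12, adjusted p = 0.0255), but not without normoxia array 3 or 4 or hypoxia array 2 or 4 (adjusted p up to 0.0708). Its other 2 probe sets differed by -0.01 and 0.11, and the mean of the 3 by -0.12 (adjusted p = 0.175). The sensor gene Ifih1 differed by 0.36 (SE 0.12, adjusted p = 0.0741). The median was 0.04 with normoxia arrays 2 to 4 left out, and 0 passed limma (5 before adjustment).

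The ATG8 conjugation machinery of autophagy helps to place the GTPases on vacuoles. Of its 14 genes 2 rose, 0 fell and 12 did not pass, with a median of 0.13, a share called near that of all genes (8.93% higher and 3.6% lower). The adaptor gene Sqstm1 rose by 0.57 (SE 0.15, limma adjusted p = 0.0288) and Atg5 by 0.25 (SE 0.07, adjusted p = 0.0361). For both the call ended on removal of normoxia 2, 3 or 4, or of hypoxia 1, 2, 3 or 4 (adjusted p up to 0.0753 and 0.0869). Atg5 was also not called after quantile normalization (adjusted p = 0.0599), in a fit blocked by array number (adjusted p = 0.0765) or when its probe sets were averaged (adjusted p = 0.408). The other 2 probe sets of Atg5 differed by -0.05 and 0.02. Gabarap, one of the ATG8 proteins, differed by 0.34 (SE 0.12, adjusted p = 0.0750). With the 3 normoxia arrays left out 0 passed limma (0 before adjustment), and the median was 0.05.

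**Figure D5:**
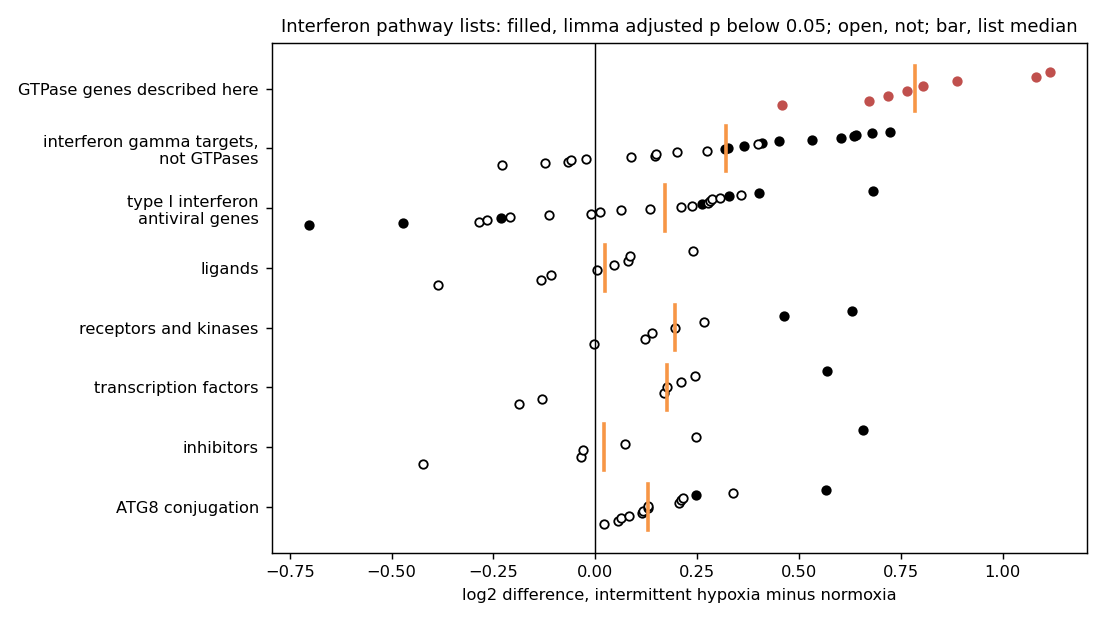
Log2 difference, intermittent hypoxia minus normoxia (horizontal axis), of each gene in the 8 GTPases and 7 interferon pathway lists, with filled points for limma adjusted p below 0.05, open points for the rest and orange bars for list medians. The GTPases have a median of 0.78, the other interferon gamma targets 0.32, and the antiviral genes lie on both sides of 0.

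Some markers of immune cells that make or answer interferon were called higher as well. Limma called 3 of 9 T cell, 2 of 9 NK cell, 4 of 7 B cell, 2 of 10 macrophage and 5 of 9 dendritic cell and MHC class II markers higher, and none lower, beside 8.93% of all genes higher. Counts of 2 of 9 and 2 of 10 are about 1 gene above that share. The mean log2 level of the T cell list was 7.20 to 7.51 in intermittent hypoxia and 7.08 to 7.25 in normoxia, and that of the NK cell list 6.98 to 7.10 and 6.77 to 7.02. The B cell list was at 8.46 to 9.20 in intermittent hypoxia and 7.89 to 8.47 in normoxia, and the macrophage list at 8.36 to 8.83 and 8.40 to 8.47. Of these 5 lists the dendritic cell list, at 9.95 to 10.19 in intermittent hypoxia and 9.61 to 9.88 in normoxia, was the one whose groups did not overlap. Of its 5 called genes 4 were MHC class II genes (H2-Aa, H2-Ab1, H2-Eb1 and Cd74), which interferon gamma also induces, and the fifth was Itgax. The dendritic cell genes Flt3, Xcr1, Zbtb46 and Ccr7 differed by -0.19, -0.04, -0.09 and 0.23 and did not pass. These genes were named after their values were seen, as was the endothelial gene Emcn.

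Between arrays the lymphocyte markers did not follow the GTPases in every case. Hypoxia array 4, the lowest of its group in 7 of the 8 GTPase genes, had the highest means of its group for the T cell list (7.51) and the B cell list (9.20). Hypoxia array 1, the highest in 8 of the 8 GTPase genes, was highest for the dendritic cell list (10.19), ranked at 2 for the T, NK and B cell lists and at 3 for the macrophage list. Normoxia array 3, low in the GTPases, was also the lowest of its group for the T, B and dendritic cell lists (7.08, 7.89 and 9.61). Without normoxia arrays 2 to 4, limma called 0 markers of these 5 lists. Of 8 endothelial markers 1 was called, Emcn, which encodes endomucin, at 9.28 to 9.50 in intermittent hypoxia and 8.14 to 8.55 in normoxia. It rose by 1.03 (SE 0.08, limma adjusted p = 9.34e-05), and by 0.91 without normoxia arrays 2 to 4 (adjusted p = 0.00775). The mean of the endothelial list was 10.90 to 11.23 in intermittent hypoxia and 10.62 to 11.11 in normoxia. The part of these cells in the GTPase values was not tested.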

How the data were processed

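Total RNA of whole mouse lung was hybridised to Affymetrix Mouse Genome 430A 2.0 arrays, 1 per animal, 5 after intermittent hypoxia and 5 in normoxia, per the labels. The authors deposited log2 probe set levels. Per the submitters' processing notes, RMA and affy were used; between-array normalization is not given in the sources used here. No detection calls came with the values, and no filter was set on the 22626 probe sets.

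Of these, 20380 carried 1 symbol in the array's annotation, 691 several and 1555 were unnamed here. For 12393 genes the brightest probe set on average stood for the gene. Groups were compared with limma 3.58.1 (lmFit, eBayes; R 4.3.3). Tests were two-sided, p-values were adjusted by Benjamini-Hochberg across the whole array, and calls were made below 0.05. For counts before adjustment no share over all genes is given, so nothing is read from them. The p-values measure the spread between animals. The fit was tested on simulated data.

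Members, lists and the left-out normoxia arrays were chosen with earlier results of these data known. Named by rule were the members, all genes of the GTPase list, and up to 4 passing and 2 other genes per remaining list. So were the 10 genes most like the members within groups, with clone names passed over. Not every such gene is named. The study's design text names SAM, which was written here anew, with 100 permutations. Other alternatives were quantile normalization, median centring, a replicate block, trend and robust options, a filter at the median level, an adjusted p below 0.10, averaging the probe sets of a gene and leaving out arrays. Motifs were searched in RefSeq promoter sequences of GRCm38.p6.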

Additional observations from a re-analysis of the deposited data

Results flagged for a closer look

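Hypoxia array 1 stood apart from the other 4 hypoxia arrays in 2 GTPase genes. Gbp2 was at 10.70 there and at most 10.31 on the others, and Gbp6 at 7.51 and at most 6.66. Without this array the log2 differences were 0.68 for Gbp2 and 0.92 for Gbp6. Tap1 was low on hypoxia array 4, at 9.21 against 9.61 or more on the other 4. These were 3 of 92 groups of 5 arrays examined for a single distant array, and about 1 in 20 groups would be picked out in this way by chance.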

How the results depend on the processing

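As a description only, since the genes were chosen by this difference, 8 of 8 GTPase genes were called higher when any single array was left out, and with quantile normalization, median centring, the replicate block, trend and robust options, an adjusted p below 0.10, SAM, and averaging over the probe sets of a gene. Where dim probe sets, those under the median level, were dropped, Gbp6 was not tested and the other 7 were called. Of all 22626 probe sets, 1003 to 4800 were called in either direction with 1 array left out. Quantile normalization gave 2285, median centring 2734, the replicate block 1755, and trend and robust options 2767. An adjusted p below 0.10 gave 4954, SAM 6342, and dropping dim probe sets 2430 of 11313. Nothing is read from the GTPase counts. Without normoxia arrays 2 to 4 together 0 of 8 were called, in a fit with fewer arrays. The median difference of 0.78 ranged from 0.69 to 0.86 with 1 array left out.

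The count of 2699 called probe sets became 4954 at an adjusted p below 0.10, 6342 with SAM and 16 without normoxia arrays 2 to 4, and ranged from 1003 to 4800 as single arrays were dropped. Of called genes 71.3% were higher, or 54.9% after quantile normalization, which moved the median of all genes from 0.01 to -0.01. The 4 called interferon signalling genes became 9 at an adjusted p below 0.10, 9 with SAM, 2 with quantile normalization and 0 without normoxia arrays 2 to 4, and ranged from 2 to 8 when 1 array was dropped. Without normoxia arrays 2 to 4 the sign turned for 11 of 92 pathway genes, 0 of them called with all arrays, among them Gbp2b (0.0070) and Cxcl9 (0.030). The cause was not tested.

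Array numbers are not stated to pair animals, so the main fit did not pair them. Arrays with the same number had deviations that correlated at -0.24 to 0.22, and 3 of 5 hypoxia arrays correlated best with their own number. These values do not settle whether the numbers pair animals. A replicate block gave 1755 called probe sets.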
